A study of Mus musculus with 10 samples.

Results

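Glutathione synthesis and the enzymes that use or restore it were examined in splenic cDC1s, the conventional dendritic cells that take up dead cells and cross-present their antigens. The set holds 10 of the 19938 genes measured: Gclc, Gclm, Gss, Slc7a11, Gsr, Gpx1, Gpx4, Txnrd1, Nqo1 and Nfe2l2. Each gene is represented by a probe set annotated to it alone, and by the brightest such set where there were several. The set was chosen by one measured value, the low Gclc intensity in the Zeb2 Id2 DKO arrays. For that reason every value of a member in a comparison with the Zeb2 Id2 DKO arrays is given as a description, without a test.

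Total RNA of cDC1s sorted from mouse spleen was hybridised to 10 Affymetrix arrays: 2 of Zeb2 Id2 DKO cells, 2 of Nfil3 Zeb2 DKO cells, 3 of Zeb2 KO cells and 3 of WT cells. Both double-knockout genotypes lack Zeb2 by label, as the Zeb2 KO does, so Zeb2 KO is the reference for the further loss of Id2 or Nfil3. Deleter strains, alleles, mouse ages and the sort gate are not given in the labels, which also leave unsaid whether each replicate is a different animal. P-values therefore measure only the spread between these samples, which may be technical. Values are log2 of the deposited intensity unless a fold is named, and errors are SD.

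Id2 read 5.01 and 4.98 log2 in both arrays of Zeb2 Id2 DKO cells, against 9.89 to 10.29 in the Zeb2 KO arrays and 10.15 to 10.43 in the WT arrays. Nfil3 read 6.20 and 7.09 in the Nfil3 Zeb2 DKO arrays, against 10.12 to 10.41 in Zeb2 KO and 9.98 to 10.77 in WT. The Zeb2 probe set was not low in the arrays labelled as lacking Zeb2. It read 6.78 and 6.82 in Zeb2 Id2 DKO, 6.46 and 6.24 in Nfil3 Zeb2 DKO and 6.10, 6.27 and 5.40 in Zeb2 KO, against 6.0, 5.93 and 6.30 in WT, so it does not check that deletion, and "Zeb2 KO" below means the arrays labelled so. The mean of 10 cDC1 markers lay between 11.45 and 11.61 in every array. Among them, Cadm1, an adhesion molecule of cDC1s named after its values were seen, averaged 10.37 ± 0.12 in Zeb2 Id2 DKO. Cadm1 was lower there than in WT (11.24 ± 0.03, log2 -0.87, limma adjusted p = 0.00225), Zeb2 KO (limma adjusted p = 0.0187) and Nfil3 Zeb2 DKO (limma adjusted p = 0.0146). No other cDC1 marker was called in these comparisons, where 1.43%, 0.497% and 0.792% of all genes passed. Against WT, 6 of the 10 markers were higher in Zeb2 Id2 DKO, by up to 0.56, with a median of 0.02 over the list. One library stood apart: Zeb2 KO replicate 3 correlated at 0.986 with each of the other Zeb2 KO arrays, while the other Zeb2 KO arrays correlated at 0.996 with each other and arrays within the other genotypes at 0.994 to 0.997. Where a difference of a single member is printed below and moved by over 1.5 times without it, both values are given.

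Glutathione is a tripeptide that cells make in a pair of ATP-dependent steps. Glutamate-cysteine ligase joins glutamate to cysteine and sets the rate, with Gclc as its catalytic and Gclm as its modifier subunit, and glutathione synthetase (Gss) adds glycine. Cysteine enters largely as cystine through the transporter subunit Slc7a11, glutathione peroxidases spend glutathione on peroxides, and glutathione reductase (Gsr) restores it with NADPH. The transcription factor Nrf2, encoded by Nfe2l2, binds antioxidant response elements and drives many of these genes.

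The upstream sequence of Gclm and of Txnrd1 is shown because both carry the core of that element while their levels ran opposite to each other over the arrays (below). The sequences are the 250 bases before the gene start, from RefSeq on GRCm38.p6, both on the plus strand. Gclm is at chr3:122245307-122245556, and the second of 3 listed starts of Txnrd1 is at chr10:82858956-82859205. Capitals mark the match to the antioxidant response element core, TGACNNNGC, which in both genes lies on the reverse strand.
Gclm: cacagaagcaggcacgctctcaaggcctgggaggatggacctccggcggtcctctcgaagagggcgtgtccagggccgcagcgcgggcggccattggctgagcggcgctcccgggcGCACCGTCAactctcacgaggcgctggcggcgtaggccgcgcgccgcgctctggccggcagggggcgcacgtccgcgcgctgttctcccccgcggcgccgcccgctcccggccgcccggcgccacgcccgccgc
Txnrd1: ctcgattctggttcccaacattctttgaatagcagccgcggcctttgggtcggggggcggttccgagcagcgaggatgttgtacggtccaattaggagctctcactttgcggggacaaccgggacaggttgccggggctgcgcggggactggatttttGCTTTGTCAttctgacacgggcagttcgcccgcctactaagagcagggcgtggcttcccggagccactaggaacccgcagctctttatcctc

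Of the 10 members, 8 had an entry among the RefSeq start windows, with 13 windows in all running from 250 bases before to 50 after a start. Gclc and Gsr were not among them. The element core, searched on both strands, was found in 3 of the 13 windows, starting at -134 in Gclm, at -92 in Txnrd1 and at -240 in Nfe2l2. It is present in 12.4% of all 32851 such windows. The E-box CACCTG, a sequence that ZEB proteins bind, was found in 1 window each of Nfe2l2 and Gpx4 and in 20.2% of all windows. CAGCTG, another E-box, was found in 1 Gpx4 window and in 16.3% of all windows, and the NFIL3-type site TTANGTAA in 1 Gpx4 window and in 2.32% of all windows.

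Gclc, the catalytic subunit of the rate-limiting ligase (probe set 10587266), varied most of the 10 members, with a range of 2.02 log2 over the arrays. It read 9.03 and 9.16 for Zeb2 Id2 DKO, 11.02 and 10.61 in the Nfil3 Zeb2 DKO arrays, 9.35, 9.86 and 10.95 in the Zeb2 KO arrays and 10.84, 10.88 and 11.04 in the WT arrays. The Zeb2 Id2 DKO arrays were below every other array, the Nfil3 Zeb2 DKO and WT arrays shared a high range, and the Zeb2 KO arrays were split, with replicate 3 within the WT range and the other two between WT and Zeb2 Id2 DKO.

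Means of Gclc were 9.09 ± 0.10 in Zeb2 Id2 DKO (n = 2), 10.81 ± 0.29 in Nfil3 Zeb2 DKO (n = 2), 10.05 ± 0.82 in Zeb2 KO (n = 3) and 10.92 ± 0.11 in WT (n = 3). As a description of the values that chose the set, Zeb2 Id2 DKO lay 3.55-fold below WT (log2 -1.83), 3.30-fold below Nfil3 Zeb2 DKO (log2 -1.72) and 1.94-fold below Zeb2 KO (log2 -0.96). With any one array left out, the difference from WT stayed between -1.90 and -1.76 and that from Nfil3 Zeb2 DKO between -1.93 and -1.52. The difference from Zeb2 KO was more dependent on single arrays, from -1.31 to -0.51, and it was -0.51 without Zeb2 KO replicate 3. In these whole-sample arrays, less RNA per cell and fewer cells that express the gene cannot be told apart.

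**Figure D1:**
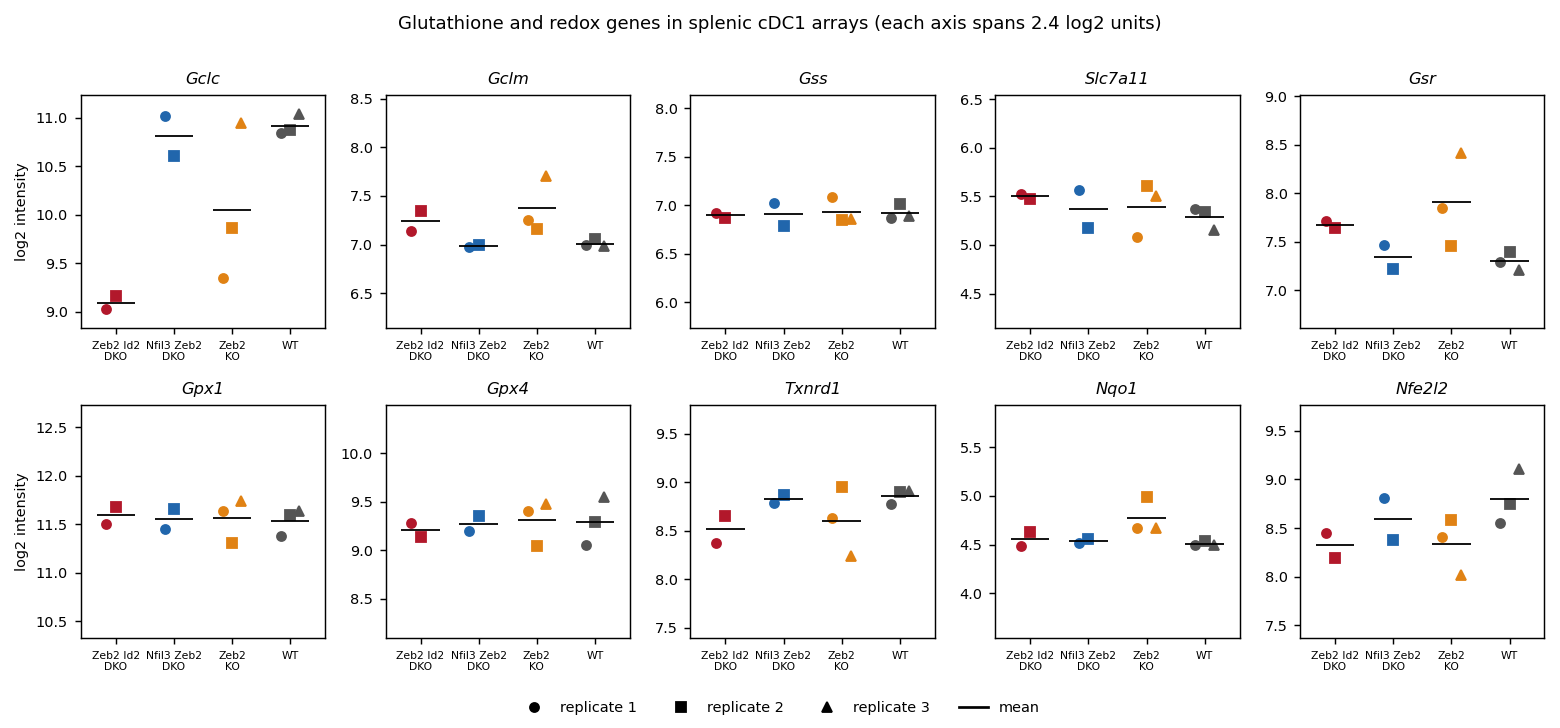
Log2 intensity of the 10 glutathione and redox genes in each array, by genotype (points, with shapes for replicate numbers; bars, group means; every vertical axis spans the same number of log2 units). Gclc is low in both Zeb2 Id2 DKO arrays and split among the Zeb2 KO arrays, from 9.35 to 10.95, whereas Gss, Gpx1 and Gpx4 stay within about the same band in all 4 genotypes.

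Members were tested in the 3 comparisons that leave out Zeb2 Id2 DKO. These share arrays with one another, so their results are not independent. By limma with Benjamini-Hochberg adjustment over all genes, 0 of the 10 members passed an adjusted p of 0.05 in Zeb2 KO against WT, where 0.0201% of all genes passed. None passed in Nfil3 Zeb2 DKO against WT or in Nfil3 Zeb2 DKO against Zeb2 KO, where 0.00502% of all genes passed in each. At an unadjusted p under 0.05, 5 members stood in Zeb2 KO against WT, 0 in Nfil3 Zeb2 DKO against WT and 2 in Nfil3 Zeb2 DKO against Zeb2 KO, beside 7.39%, 4.16% and 8.50% of all genes. Under array weights, which let noisier arrays count less, 1 member passed in Zeb2 KO against WT: Gclc, with a log2 difference of -1.12 and a limma adjusted p of 0.0378, beside 0.376% of all genes.

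For Gclc, Zeb2 KO differed from WT by -0.87 log2 (95% confidence interval -1.56 to -0.18, limma adjusted p = 0.533), and the groups overlapped. Without Zeb2 KO replicate 3 the same difference was -1.32 (-1.66 to -0.98), 2.49-fold lower, with a limma adjusted p of 0.00757, and 0.828% of all genes passed. Nfil3 Zeb2 DKO differed from WT by -0.11 (-0.88 to 0.66, limma adjusted p = 1), an interval that includes both no change and a difference as large as that measured between Zeb2 KO and WT. Nfil3 Zeb2 DKO lay above Zeb2 KO by 0.76 (-0.01 to 1.53, limma adjusted p = 0.598). Without Zeb2 KO replicate 3 it was 1.21 higher (0.84 to 1.59), 2.32-fold, with a limma adjusted p of 0.0241, and 0.532% of all genes passed.

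**Figure D2:**
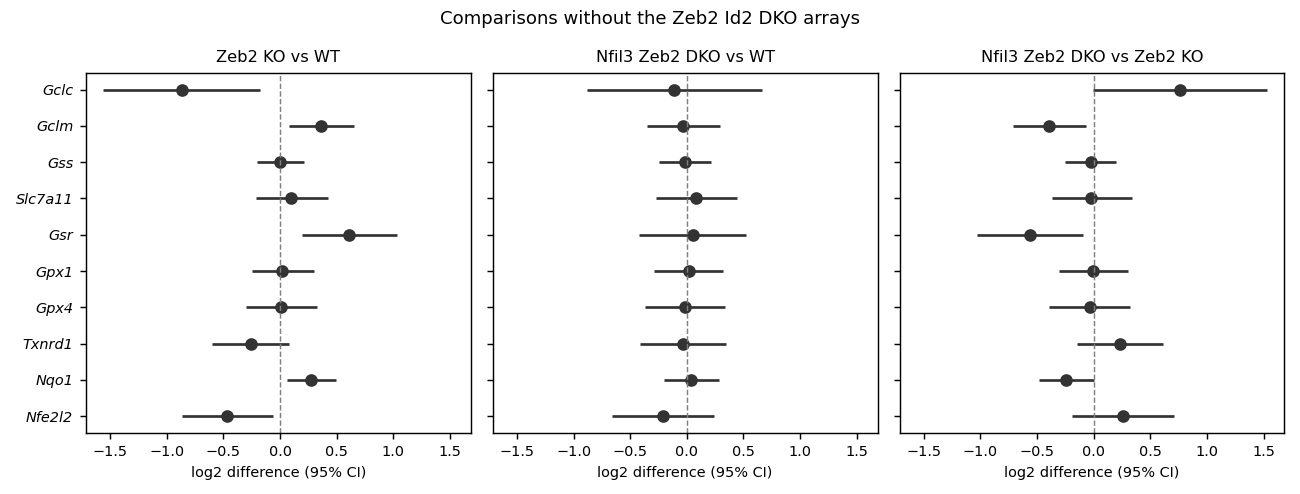
Log2 difference of each member in the 3 comparisons without Zeb2 Id2 DKO arrays (points, with 95% confidence intervals from limma over all 10 arrays; the dashed line marks no difference). Gclc lies at -0.87 in Zeb2 KO against WT with the widest interval, Gsr at 0.61 and Gclm at 0.36, and no member passed an adjusted p of 0.05.

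Gclm, the modifier subunit (probe set 10495763), did not follow its catalytic partner. It read 7.14 and 7.35 in Zeb2 Id2 DKO, 6.97 and 7.0 in Nfil3 Zeb2 DKO, 7.25, 7.16 and 7.71 in Zeb2 KO and 6.99, 7.06 and 6.98 in WT. All Zeb2 KO and Zeb2 Id2 DKO arrays were above all Nfil3 Zeb2 DKO and WT arrays, by small margins. The difference was 0.36 between Zeb2 KO and WT (0.08 to 0.65, limma adjusted p = 0.527) and -0.39 between Nfil3 Zeb2 DKO and Zeb2 KO (-0.71 to -0.07, limma adjusted p = 0.479). These were 0.19 (0.01 to 0.38) and -0.22 (-0.42 to -0.02) without Zeb2 KO replicate 3. Zeb2 Id2 DKO was 0.23 above WT. Over the 10 arrays the Pearson correlation of Gclc with Gclm was -0.22. That value includes Zeb2 KO replicate 3, which was high in both genes (Gclc 10.95, Gclm 7.71). The other Zeb2 KO arrays and both Zeb2 Id2 DKO arrays were instead high in Gclm and low in Gclc. The part of replicate 3 in this correlation was not tested.

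Gss, the second enzyme of synthesis (probe set 10488879), was nearly flat. It read 6.92 and 6.87 in Zeb2 Id2 DKO, 7.02 and 6.79 in Nfil3 Zeb2 DKO, 7.08, 6.85 and 6.86 in Zeb2 KO and 6.87, 7.01 and 6.89 in WT, with a range of 0.29 over all arrays, the smallest among the members. The genotypes overlapped, and Zeb2 KO differed from WT by 0.00 (-0.20 to 0.21, limma adjusted p = 0.997), and by 0.04 without replicate 3.

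Slc7a11, the cystine-glutamate exchanger subunit (probe set 10498024), was close to the dim end of the array. It read 5.53 and 5.47 in Zeb2 Id2 DKO, 5.57 and 5.18 in Nfil3 Zeb2 DKO, 5.08, 5.61 and 5.50 in Zeb2 KO and 5.37, 5.34 and 5.15 in WT. Both Zeb2 Id2 DKO arrays were above the WT arrays, by 0.21 between means, while the Zeb2 KO arrays held both the lowest and the highest value. Zeb2 KO differed from WT by 0.10 (-0.21 to 0.42, limma adjusted p = 0.936), and by 0.05 without replicate 3.

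Gsr, which returns oxidised glutathione to its reduced form (probe set 10571274), was the second most variable member, with a range of 1.2. It read 7.71 and 7.64 in Zeb2 Id2 DKO, 7.46 and 7.22 in Nfil3 Zeb2 DKO, 7.85, 7.45 and 8.41 in Zeb2 KO and 7.29, 7.39 and 7.21 in WT. Every Zeb2 KO and Zeb2 Id2 DKO array was above every WT array, and Zeb2 KO replicate 3 was the highest of all. The difference between Zeb2 KO and WT was 0.61 (0.19 to 1.03), 1.53-fold, with a limma adjusted p of 0.462, and it was 0.36 without that array. Nfil3 Zeb2 DKO differed from Zeb2 KO by -0.56 (-1.03 to -0.09, limma adjusted p = 0.499), and these groups touched at 7.46 and 7.45. Without Zeb2 KO replicate 3 this difference was -0.31 (-0.60 to -0.02). Zeb2 Id2 DKO was 0.38 above WT.

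The peroxidases showed little difference between genotypes. Gpx1, which removes hydrogen peroxide (probe set 10588899), read 11.50 and 11.68 in Zeb2 Id2 DKO, 11.45 and 11.66 in Nfil3 Zeb2 DKO, 11.64, 11.31 and 11.74 in Zeb2 KO and 11.38, 11.59 and 11.64 in WT. Gpx4, which reduces lipid peroxides and restrains ferroptosis (probe set 10364675), read 9.28 and 9.14 in Zeb2 Id2 DKO, 9.20 and 9.35 in Nfil3 Zeb2 DKO, 9.41, 9.04 and 9.48 in Zeb2 KO and 9.05, 9.29 and 9.55 in WT. Both genes overlapped in all comparisons. Zeb2 KO differed from WT by 0.02 for Gpx1 (-0.25 to 0.30) and by 0.01 for Gpx4 (-0.30 to 0.33), with limma adjusted p of 0.987 and 0.995. These were -0.06 and -0.07 without Zeb2 KO replicate 3. A second probe set of Gpx4 was nearly identical to the first in every array.

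Txnrd1, the cytosolic thioredoxin reductase of the parallel thiol system (probe set 10365260), read 8.38 and 8.65 in Zeb2 Id2 DKO, 8.79 and 8.87 in Nfil3 Zeb2 DKO, 8.63, 8.95 and 8.24 in Zeb2 KO and 8.78, 8.90 and 8.91 in WT. Both Zeb2 Id2 DKO arrays were below the Nfil3 Zeb2 DKO and WT arrays, and Zeb2 KO replicate 3 was the lowest of all. Zeb2 Id2 DKO was 0.35 below WT as a description (log2 -0.35), and Zeb2 KO differed from WT by -0.26 (-0.60 to 0.08, limma adjusted p = 0.784). Without Zeb2 KO replicate 3 the difference of Zeb2 KO from WT was -0.08 (-0.33 to 0.17).

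Nqo1, a quinone reductase and a classic Nrf2 target (probe set 10581538), was the one member below the 25th percentile of mean gene levels (5.27). It read 4.48 and 4.63 in Zeb2 Id2 DKO, 4.52 and 4.56 in Nfil3 Zeb2 DKO, 4.67, 4.99 and 4.67 in Zeb2 KO and 4.49, 4.54 and 4.49 in WT. The 3 Zeb2 KO arrays were above all others, by 0.27 over WT (0.06 to 0.49, limma adjusted p = 0.518), in a range where the probe set carries little signal.

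Nfe2l2, which encodes Nrf2 itself (probe set 10483809), read 8.45 and 8.19 in Zeb2 Id2 DKO, 8.81 and 8.38 in Nfil3 Zeb2 DKO, 8.41, 8.58 and 8.02 in Zeb2 KO and 8.55, 8.75 and 9.11 in WT. Both Zeb2 Id2 DKO arrays were below the WT arrays (log2 -0.48), and the other genotypes overlapped with WT. Zeb2 KO differed from WT by -0.47 (-0.87 to -0.06, limma adjusted p = 0.589), and by -0.31 (-0.68 to 0.07) without replicate 3.

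The members did not move as a block. Their median difference was 0.02 in Zeb2 KO against WT (0 over all genes), -0.02 in Nfil3 Zeb2 DKO against WT (0.01 over all genes) and -0.02 in Nfil3 Zeb2 DKO against Zeb2 KO (0.02 over all genes). Groups did not overlap for 3 members in Zeb2 KO against WT, for 0 in Nfil3 Zeb2 DKO against WT and for 2 in Nfil3 Zeb2 DKO against Zeb2 KO, beside 10.4%, 23.8% and 22.1% of all genes. In the comparisons that the choice of the set used, the medians were 0.01 against WT, -0.09 against Zeb2 KO and 0 against Nfil3 Zeb2 DKO for Zeb2 Id2 DKO. There the groups did not overlap for 6, 2 and 4 members, beside 31.4%, 20.2% and 52.4% of all genes.

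As a description over the 10 arrays, which share genotypes and include Zeb2 KO replicate 3, the members fell into profiles that differ from that of Gclc. Gclm and Gsr varied together (Pearson r = 0.93), and both opposed Txnrd1 (r = -0.76 with Gclm and -0.88 with Gsr) and Nfe2l2 (r = -0.78 with Gclm and -0.71 with Gsr). Txnrd1 and Nfe2l2 had r = 0.69, and Gpx1 and Gpx4 had r = 0.76. Zeb2 KO replicate 3 held the highest Gclm and Gsr and the lowest Txnrd1 and Nfe2l2 values, and the part of that array in these correlations was not tested.

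Around the 10 members, 11 lists of 186 other measured genes covered glutathione turnover and transferases, cysteine and glutamate supply, peroxide removal, the thioredoxin system, Nrf2 regulators and targets, NADPH supply, ferroptosis, selenoprotein synthesis and NADPH oxidases. By limma, 0 of the 186 passed in Zeb2 KO against WT, in Nfil3 Zeb2 DKO against WT and in Nfil3 Zeb2 DKO against Zeb2 KO, with 24, 11 and 18 at an unadjusted p under 0.05. Of all genes, 7.39%, 4.16% and 8.50% stood at that level. In Zeb2 Id2 DKO against WT, 3 rose and 3 fell, which is 3.23% of the 186 beside 1.43% of all genes (0.878% higher and 0.557% lower). Their median difference was -0.01, the same as over all genes.

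**Figure D3:**
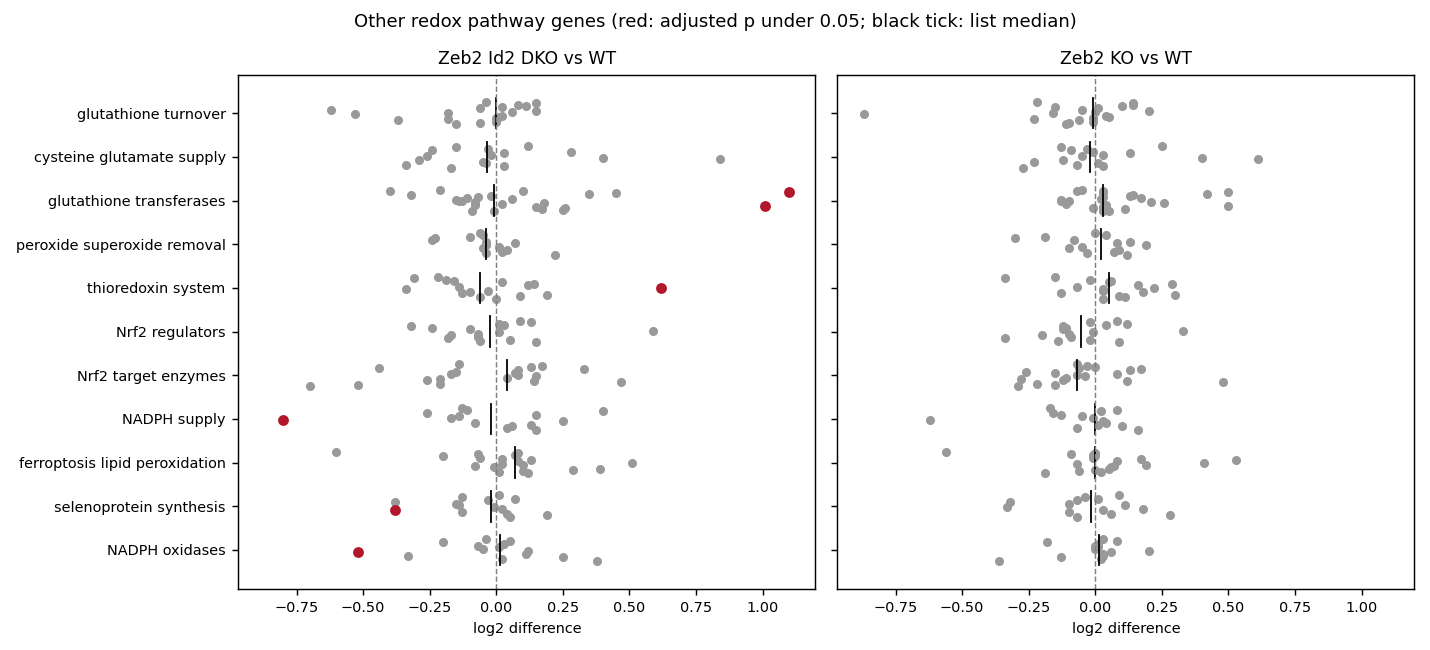
Log2 difference of the 186 other pathway genes by list, in Zeb2 Id2 DKO against WT (left) and Zeb2 KO against WT (right; red points, adjusted p under 0.05; black ticks, list medians). List medians sit near 0 in both panels, and the 6 called genes are all in the Zeb2 Id2 DKO panel, at 1.10 and 1.01 among the transferases, 0.62 in the thioredoxin system and -0.80 in NADPH supply, with smaller falls among selenoprotein and NADPH oxidase genes.

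The 2 called transferases were the largest rises. Mgst3, a membrane-bound glutathione transferase and peroxidase, read 8.59 and 8.41 in Zeb2 Id2 DKO, 7.26 and 7.61 in Nfil3 Zeb2 DKO, 8.23, 8.02 and 7.47 in Zeb2 KO and 7.49, 7.31 and 7.42 in WT. It ran opposite to Gclc, high where Gclc was low, including a WT-like value in Zeb2 KO replicate 3. Zeb2 Id2 DKO was 1.10 above WT (0.67 to 1.52), 2.14-fold, with a limma adjusted p of 0.0218.

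Gstm5, a cytosolic transferase of the mu class, read 5.90 and 5.89 in Zeb2 Id2 DKO, 4.94 and 4.95 in Nfil3 Zeb2 DKO, 5.80, 5.32 and 5.02 in Zeb2 KO and 4.79, 4.99 and 4.87 in WT. Zeb2 Id2 DKO was 1.01 above WT (0.62 to 1.40), 2.02-fold, with a limma adjusted p of 0.0205. The WT and Nfil3 Zeb2 DKO readings lay below 5.27, the 25th percentile of mean gene levels, where a probe set carries little signal. The mean of Gstm5 over all arrays was also below that level, so its call was not checked under the filter on dim genes. The mu-class genes are close relatives in sequence, and cross-hybridisation of this probe set was not tested.

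Nxn, nucleoredoxin, a thioredoxin-fold oxidoreductase, averaged 8.31 ± 0.06 in Zeb2 Id2 DKO and 7.69 ± 0.12 in WT, a rise of 0.62 (limma adjusted p = 0.0141). It averaged 7.9 ± 0.12 in Zeb2 KO, 0.22 above WT without passing (limma adjusted p = 0.623), and read 7.79 and 7.77 in Nfil3 Zeb2 DKO. Idh1, a cytosolic source of NADPH, read 7.63 and 7.75 in Zeb2 Id2 DKO, 8.26 and 8.01 in Nfil3 Zeb2 DKO, 7.93, 7.67 and 8.01 in Zeb2 KO and 8.64, 8.35 and 8.48 in WT. Every array of the 3 knockout genotypes was below every WT array, and Zeb2 Id2 DKO fell by 0.80 on the log2 scale (95% confidence interval -1.08 to -0.52, limma adjusted p = 0.0133). Idh1 in Zeb2 KO differed from WT by -0.62 without passing (limma adjusted p = 0.168).

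The remaining falls were small. Eefsec, the selenocysteine elongation factor that selenoproteins such as Gpx4 and Txnrd1 need, averaged 10.55 ± 0.10 in Zeb2 Id2 DKO and 10.94 ± 0.04 in WT (log2 -0.38, limma adjusted p = 0.0466). It averaged 10.97 ± 0.04 in Zeb2 KO, from which Zeb2 Id2 DKO differed by -0.42 without passing (limma adjusted p = 0.0616). Rac2, a GTPase that activates the phagocyte NADPH oxidase, averaged 10.45 ± 0.17 in Zeb2 Id2 DKO and 10.97 ± 0.08 in WT (log2 -0.52, limma adjusted p = 0.0373). Each of the 6 calls was lost when either Zeb2 Id2 DKO array was left out, with limma adjusted p up to 0.185 for Gstm5, 0.227 for Mgst3, 0.179 for Nxn, 0.156 for Idh1, 0.43 for Eefsec and 0.399 for Rac2 over all single omissions. The Eefsec call was lost in 9 of the 10 omissions, Rac2 in 8, Gstm5 in 5, Mgst3 and Nxn in 4 each and Idh1 in 3. Eefsec also failed with trended robust moderation (limma adjusted p = 0.0604) and Rac2 with repeated quantile normalization (limma adjusted p = 0.0635).

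Against Zeb2 KO, where 0.497% of all genes passed, the one pathway gene called in Zeb2 Id2 DKO was Rac2 (10.45 ± 0.17 in Zeb2 Id2 DKO and 11.04 ± 0.13 in Zeb2 KO, log2 -0.59, limma adjusted p = 0.043). That call was lost on leaving out any one array other than Zeb2 KO replicate 3, and with repeated quantile normalization (limma adjusted p = 0.0586) or only the groups compared (limma adjusted p = 0.323). Against Nfil3 Zeb2 DKO, where 0.792% of all genes passed, it was Ncf1, the p47phox subunit of the NADPH oxidase (9.59 ± 0.04 in Zeb2 Id2 DKO and 9.04 ± 0.08 in Nfil3 Zeb2 DKO, log2 0.55, limma adjusted p = 0.0176). The Ncf1 call was lost without any one of the arrays compared (limma adjusted p up to 0.158), and with repeated quantile normalization (log2 0.47, limma adjusted p = 0.0744). Mgst3 lay 1.07 above Nfil3 Zeb2 DKO (limma adjusted p = 0.0526), Slc6a9, a glycine transporter, 1.29 (limma adjusted p = 0.0557) and Gstm5 0.95 (limma adjusted p = 0.0559), just short of the threshold.

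Without Zeb2 KO replicate 3, 5 of the 186 pathway genes passed in Zeb2 KO against WT, beside 0.828% of all genes. Mgst3 was 0.72 higher (limma adjusted p = 0.0255) and Gstm5 0.68 higher (limma adjusted p = 0.0356), while Idh1 differed by -0.69 (limma adjusted p = 0.0296), Sat1, a polyamine acetyltransferase, by -0.70 (limma adjusted p = 0.0278) and Hmox1, haem oxygenase 1, by -0.77 (limma adjusted p = 0.0309). Hmox1 was named after its values were seen. It read 7.24 and 7.51 in Zeb2 Id2 DKO, 7.87 and 8.17 in Nfil3 Zeb2 DKO, 7.37, 7.22 and 8.74 in Zeb2 KO and 7.85, 8.23 and 8.12 in WT, so Zeb2 KO replicate 3 held its highest value. Without that array, Mgst3 was lower in Nfil3 Zeb2 DKO than in Zeb2 KO by -0.69 log2 (limma adjusted p = 0.048). In Zeb2 Id2 DKO against Zeb2 KO, also without it, 0.742% of all genes passed. The pathway genes among them were Nxn (log2 0.48, limma adjusted p = 0.0477), Eefsec (log2 -0.44, limma adjusted p = 0.0421), Ncf1 (log2 0.41, limma adjusted p = 0.0495) and Rac2 (log2 -0.52, limma adjusted p = 0.0448).

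Among pathway genes that did not pass in the fit over all 10 arrays, the smallest p-values in Zeb2 KO against WT, beside Idh1, belonged to Slc7a5, a large neutral amino acid transporter (log2 0.40, limma adjusted p = 0.214), Sat1 (log2 -0.56, limma adjusted p = 0.314) and Dpep2, a dipeptidase (log2 -0.87, limma adjusted p = 0.348). In Nfil3 Zeb2 DKO against Zeb2 KO they belonged to Blvrb, biliverdin reductase B (log2 -0.90), Slc7a5 (log2 -0.44) and Slc6a9 (log2 -1.07), each with a limma adjusted p of 0.374.

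The profile of Gclc over the 10 arrays was set against those of other genes by Pearson r, as a description. Gene models with placeholder symbols, short RNA genes, odorant and pheromone receptors and antigen-receptor genes were left out. The ranks below therefore hold only among the genes kept. The 6 most alike were Ccr7, the chemokine receptor of migrating dendritic cells (r = 0.988), Tnfrsf4, which encodes OX40 (0.979), Loxl3, a lysyl oxidase-like enzyme (0.976), Gp2, a receptor for bacterial fimbriae on M cells (0.972), Lima1, an actin-binding protein (0.971), and Nudt17, a nudix hydrolase (0.968). The 3 most opposite were Mgst3 (-0.988), Abcg2, an efflux transporter (-0.979), and Cux1, a homeobox transcription factor (-0.977). Over the 8 arrays without Zeb2 Id2 DKO these genes had r between 0.937 and 0.983, or between -0.977 and -0.955. They were picked over the 10 arrays that include those 8, so these values are no separate check of the likeness. Only 2 of the 6 most alike stayed in the top 6.

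Ccr7 read 10.33 and 10.40 in Zeb2 Id2 DKO, 11.38 and 11.13 in Nfil3 Zeb2 DKO, 10.34, 10.73 and 11.26 in Zeb2 KO and 11.34, 11.18 and 11.28 in WT. Gp2 read 6.78 and 6.91 in Zeb2 Id2 DKO, 10.04 and 10.23 in Nfil3 Zeb2 DKO, 7.37, 8.12 and 10.12 in Zeb2 KO and 9.55, 10.41 and 9.84 in WT. As for Gclc, both Zeb2 Id2 DKO arrays were low, the first 2 Zeb2 KO arrays were low or intermediate, and Zeb2 KO replicate 3 stood with WT.

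**Figure D4:**
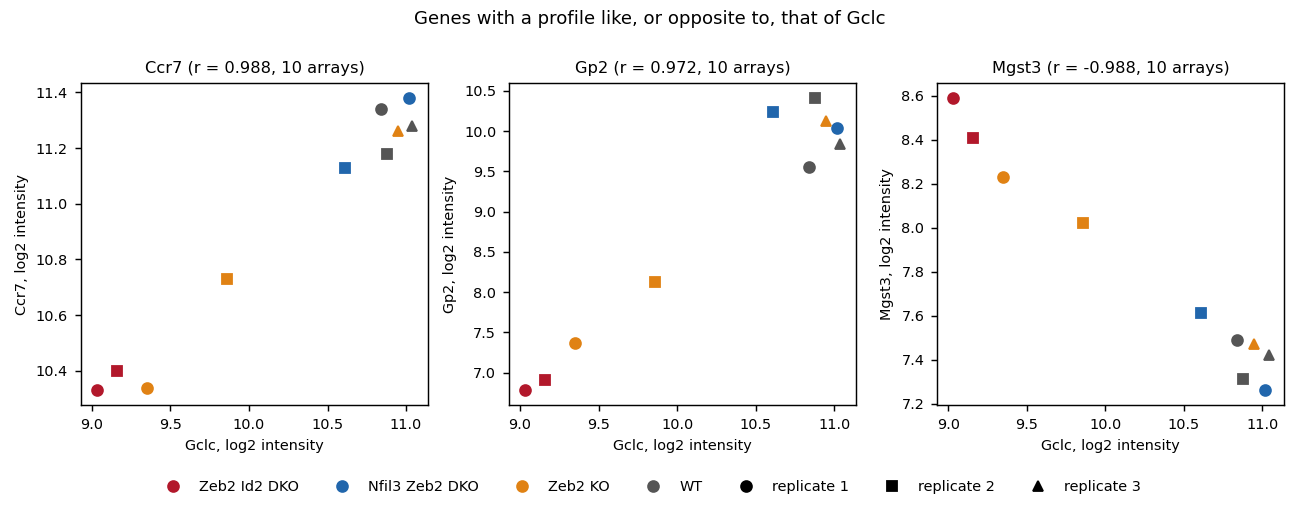
Log2 intensity of Ccr7, Gp2 and Mgst3 against that of Gclc in the 10 arrays (colours, genotypes; shapes, replicate numbers). Ccr7 (r = 0.988) and Gp2 (r = 0.972) climb with Gclc and Mgst3 (r = -0.988) declines, and in each panel Zeb2 KO replicate 3 lies among the WT and Nfil3 Zeb2 DKO arrays while the other Zeb2 KO arrays lie towards Zeb2 Id2 DKO.

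The 6 genes next to Gclc on mouse chromosome 9 did not fall as Gclc did in Zeb2 Id2 DKO. In the RefSeq order, Klhl31, Lrrc1 and Mlip lie on one side and Elovl5, Fbxo9 and Cilk1 on the other. Elovl5, a fatty acid elongase and the brightest of these, read 10.84 and 10.88 in Zeb2 Id2 DKO and 10.71, 11.04 and 10.85 in WT. Between Zeb2 Id2 DKO and WT the 6 neighbours differed by -0.07 (Cilk1) to 0.25 (Lrrc1 and Fbxo9). Fbxo9 was higher in every Zeb2 KO and Zeb2 Id2 DKO array (7.93 to 8.13) than in every Nfil3 Zeb2 DKO and WT array (7.70 to 7.88). Lrrc1 was highest in the Zeb2 Id2 DKO arrays (7.79 and 7.88).

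Markers of other cells also differed between the genotypes. The mean of 12 neutrophil markers lay at 8.24 and 9.41 in Zeb2 Id2 DKO, 7.33 and 7.96 in Nfil3 Zeb2 DKO and 9.30, 8.38 and 8.62 in Zeb2 KO, against 6.88, 6.72 and 7.0 in WT. Of these markers, 8 were called higher in Zeb2 Id2 DKO against WT and 1 in Zeb2 KO against WT by limma. Beside these counts and those below, 0.878% of all genes were called higher in Zeb2 Id2 DKO against WT. In Zeb2 KO against WT, 0.0201% of all genes were called in either direction. The mean of 9 erythroid markers ran from 7.54 to 7.71 in Zeb2 Id2 DKO, between 6.18 and 6.75 in Nfil3 Zeb2 DKO and between 7.01 and 7.14 in Zeb2 KO, against 6.42 to 6.89 in WT, with 3 called higher in Zeb2 Id2 DKO. The mean of 8 plasmacytoid dendritic cell markers ran from 8.14 to 8.22 in Zeb2 Id2 DKO and 7.48 to 7.67 in Zeb2 KO, against 7.58 to 7.81 in WT, with 3 called higher in Zeb2 Id2 DKO.

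Among the other lists, only the T cell markers held calls in both directions in Zeb2 Id2 DKO against WT. Of all genes, 0.878% were called higher there and 0.557% lower. Of 11 T cell markers, Cd3d, Cd3g and Lat were called lower and Cd6 higher, and of 12 red pulp macrophage markers Vcam1 and Hpgd were called lower. Il2rb was called lower among 12 NK cell markers, and Ms4a6c higher among 9 monocyte markers. These marker genes were named after their values were seen. Whether the marker calls, including that of Cadm1, hold with an array left out was not examined. Means of the B cell, T cell, NK cell, cDC2, monocyte and red pulp macrophage lists lay between 5.97 and 7.81 in every array.

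The red pulp macrophage mean ran alongside Gclc in part. It was 6.38 and 6.52 in Zeb2 Id2 DKO, 6.73 and 6.70 in Nfil3 Zeb2 DKO and 6.36, 6.40 and 6.84 in Zeb2 KO, against 6.61, 6.90 and 6.91 in WT, so that Zeb2 KO replicate 3 again stood within the WT range. Hmox1 belongs to this list as well as to the Nrf2 targets. The neutrophil mean of Zeb2 KO replicate 3 (8.62) was instead between those of the other Zeb2 KO arrays (9.30 and 8.38). The part of these cells in the values of the glutathione genes was not tested.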

How the data were processed

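Arrays of splenic cDC1s from 4 genotypes were grouped by the genotype in the labels. The authors processed them in Affymetrix Expression Console with RMA, per the submitters' processing notes. The deposited values are linear, normalized intensities (5.05 to 16019), and log2 of each intensity was taken. Which annotation was used upstream is not stated in the labels. Median intensity per array was 76.3 to 82.9. The number of arrays limits precision: the median 95% confidence interval reached 0.22 to 0.26 log2 to either side.

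Of 28853 probe sets, 21789 named 1 gene and were used, giving 19938 genes; for 999 genes with several sets, the one of highest mean was taken. Probe sets naming several genes (1621) or none (5443) were left out. Models were fitted with limma 3.58.1 in R 4.3.3 (lmFit, eBayes) over all 10 arrays with a mean per genotype, and p-values were adjusted by Benjamini-Hochberg within each of 6 comparisons at 0.05. The test was checked on simulated data. Correlations were computed with numpy 2.4.6.

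The members and gene lists were chosen with earlier results of these data known. Named genes are the members, the targeted genes and called pathway genes (up to 4 a list) or otherwise the 4 of smallest p. They also include the 6 genes most like and 3 most unlike Gclc among those ranked, 3 neighbours on either side and marker lists. Alternatives were the mean of probe sets, a filter on dim genes, repeated quantile normalization, log2(intensity + 16), trended robust moderation, array weights, only the groups compared, the replicate block and leaving out each array.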

Additional observations from a re-analysis of the deposited data

How the results depend on the processing

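Among the members and pathway genes whose differences were recomputed, no called difference changed sign under any alternative run. Other called genes were not checked for sign. Of 1074 recomputed member differences, 1069 kept their side of the threshold or moved less than the spread, 3 newly passed and 2 moved, and 79 that had not passed changed sign. Called genes numbered 4 in Zeb2 KO against WT, 1 in Nfil3 Zeb2 DKO against WT, 1 in Nfil3 Zeb2 DKO against Zeb2 KO, and, for Zeb2 Id2 DKO, 286 against WT, 99 against Zeb2 KO and 158 against Nfil3 Zeb2 DKO. In the same order, array weights gave 75, 23, 4, 1076, 256 and 1139. With only the groups compared, the counts were 1 in Zeb2 KO against WT, 2 in Nfil3 Zeb2 DKO against WT, and, for Zeb2 Id2 DKO, 554 against WT, 20 against Zeb2 KO and 833 against Nfil3 Zeb2 DKO. With log2(intensity + 16), 0 genes passed in Zeb2 KO against WT. Leaving out single arrays gave 0 to 165 in Zeb2 KO against WT, 1 to 7 in Nfil3 Zeb2 DKO against WT, 1 to 106 in Nfil3 Zeb2 DKO against Zeb2 KO, and, for Zeb2 Id2 DKO, 67 to 760 against WT, 25 to 148 against Zeb2 KO and 23 to 704 against Nfil3 Zeb2 DKO.

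Pathway genes called in Zeb2 KO against WT were 2 under array weights and 0 to 5 with an array left out, against 0. In Nfil3 Zeb2 DKO they were 0 to 0 against WT and 0 to 1 against Zeb2 KO. In Zeb2 Id2 DKO against WT they were 10 with only the groups compared, 17 under array weights, and 0 to 11 with an array left out, against 6. In Zeb2 Id2 DKO against Zeb2 KO they were 3 with log2(intensity + 16), 0 with only the groups compared, 5 under array weights and 0 to 4 with an array left out, against 1. In Zeb2 Id2 DKO against Nfil3 Zeb2 DKO they were 2 without dim genes, with log2(intensity + 16) and with trended robust moderation, 12 with only the groups compared, 15 under array weights and 0 to 11 with an array left out, against 1. Members called were 1 (Gclc) under array weights in Zeb2 KO against WT, and 0 to 1, 0 to 0 and 0 to 1 with an array left out in the 3 tested comparisons. For Gclc in Zeb2 Id2 DKO, leaving out arrays gave -1.90 to -1.76 against WT, -1.31 to -0.51 against Zeb2 KO and -1.93 to -1.52 against Nfil3 Zeb2 DKO. When 1 array of a double knockout was left out, the other was assumed to vary like the remaining groups. The cause was not tested for any of these shifts.

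Whether replicate numbers pair the arrays is not stated in the labels. Deviations from the group mean correlated between -0.31 and 0.16 for same-numbered arrays and between -0.21 and 0.29 for differently numbered ones. In a group of 2 arrays the deviations mirror each other, so this comparison cannot decide the pairing. With the replicate block, 8 genes passed in Zeb2 KO against WT and 183 in Zeb2 Id2 DKO against WT, pathway genes called for Zeb2 Id2 DKO were 2 against WT, 0 against Zeb2 KO and 3 against Nfil3 Zeb2 DKO, and Gclc differed by -1.57 between Zeb2 Id2 DKO and WT. With it, the calls of Gstm5, Mgst3, Eefsec and Rac2 in that comparison did not pass (limma adjusted p = 0.0512, 0.0528, 0.0947 and 0.119).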
